A study of Rattus norvegicus with 6 samples.

Results

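Genes that mark leptomeningeal fibroblasts, the connective tissue cells of the pia and arachnoid, were followed in cultured brainstem cells of hypertensive and normotensive rats. The group has 8 genes, Aldh1a2, Slc6a13, Slc13a4, Lum, Dcn, Ogn, Igf2 and Thy1, and was taken as every probe whose only annotated symbol is one of these names, which gave 11 of the 33849 probes in the deposited table, or 8 of 12198 genes with a probe. Aldh1a2, Slc6a13 and Slc13a4 were chosen on their intensity in SHR against WKY, where they had been seen brighter in the hypertensive strain, so the strain differences below are given as a description with no test. All 11 probes had values above 0 on all 6 arrays, so none was lost to the filter on low values. The spontaneously hypertensive rat (SHR) is inbred and becomes hypertensive with age, and the Wistar Kyoto rat (WKY) is its normotensive control strain. Each strain had 3 single-colour CodeLink arrays, each with RNA of brainstem cells pooled from 3 culture dishes. The labels name no treatment and no age of the animals, and do not say whether the pools came from separate litters or culture days, so the errors cover the spread between these pools, which may be technical.

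The leptomeninges wrap the brain surface and follow its vessels inward, so cells cultured from brainstem tissue can include them. Their fibroblasts make retinoic acid with the enzyme encoded by Aldh1a2, carry GABA, taurine and sulfate across their membranes, and lay down collagens and small leucine-rich proteoglycans, which bind collagen fibrils. None of the 8 genes is limited to these cells. Thy1 is also a neuronal surface protein, Igf2 is also made by the choroid plexus, and proteoglycans such as Dcn are made by fibroblasts of many tissues.

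The brightest probes of 6 of the 8 genes were brighter in SHR and those of Igf2 and Thy1 were dimmer. Over the 8 genes the median difference was 1.35 on the log2 scale, SHR minus WKY, against -0.00088 over 11709 genes taken in the same way. At 3 of the 11 probes the 3 SHR arrays lay wholly above the 3 WKY arrays and at none wholly below, and 13.8% of the 33249 probes tested had strains that did not overlap (6.35% higher and 7.48% lower in SHR). In limma 0 of the 11 probes passed an adjusted p of 0.05, as did 0% of all probes tested. The probe of Aldh1a2 alone of the 11 passed in 2 alternative fits, without the dimmest 25% of probes and with an intensity trend and robust prior, which called 18 and 28 probes. An unadjusted p under 0.05 was met by 5 of the 11, all higher in SHR, beside 7.65% of all probes (3.65% higher and 4.01% lower). Nothing is read from these counts, because the same contrast chose members of the group. The number of probes wholly above was 5 without SHR 1 and 6 without WKY 1, and without SHR 3 there were 3 above and 2 below, Igf2 and probe 3 of Slc13a4. With 2 arrays against 3 separation is easier to meet, so these counts do not compare with the shares above, which are for 3 against 3. The 5 probes higher at an unadjusted p under 0.05 became 3 without SHR 2, SHR 3, WKY 2 or WKY 3, each left out alone. In RNA of whole cultures, fewer cells of a type and less RNA per cell cannot be told apart.

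**Figure D1:**
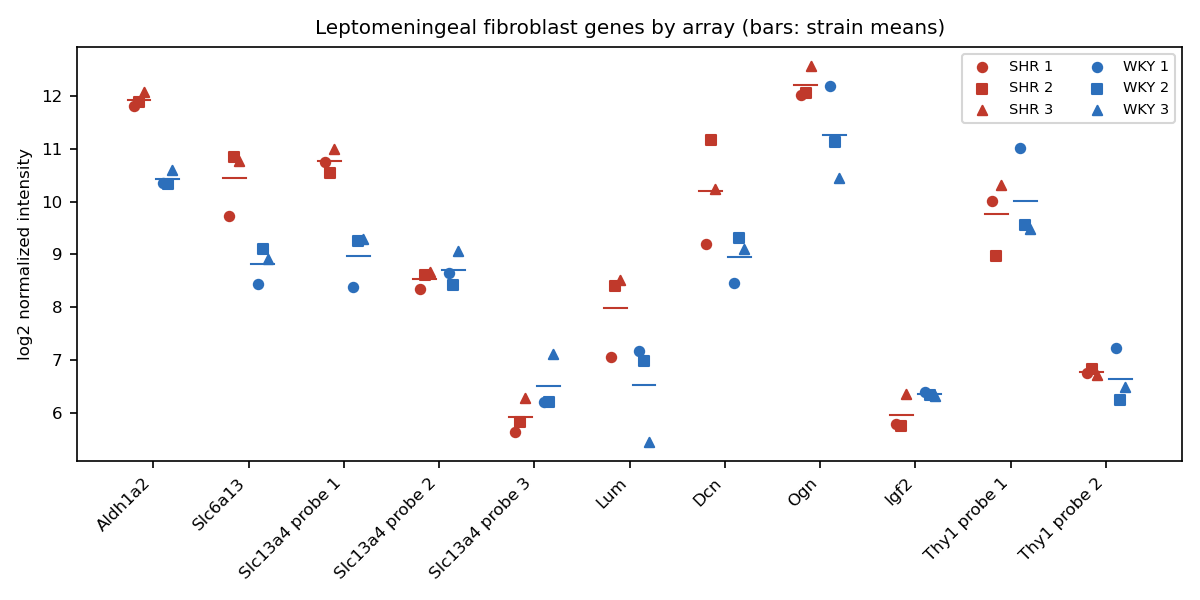
Each point is the log2 normalized intensity (y axis) of 1 array at 1 of the 11 probes (x axis), with SHR in red, WKY in blue, a marker shape for each replicate and a bar at each strain's mean. Aldh1a2, Slc6a13 and probe 1 of Slc13a4 show no overlap between strains, and the other 8 probes overlap.

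Aldh1a2 encodes retinaldehyde dehydrogenase 2, which turns retinaldehyde into retinoic acid. Its probe read 3580.2, 3753 and 4308 intensity units in SHR 1, 2 and 3, and 1300.1, 1296 and 1546 in WKY 1, 2 and 3. The lowest SHR array was thus well above the highest WKY array, and the arrays of a strain lay close together, the brightest at 1.20 times the dimmest in SHR and 1.19 times in WKY. The strain means on the log2 scale, 11.92 ± 0.14 for SHR and 10.43 ± 0.15 for WKY (SD, n = 3), stood 1.49 ± 0.14 (SE) apart, or 2.81-fold. Of the 11 probes this had the smallest SE of the difference beside its size, and across all alternative settings the difference stayed between 1.41 and 1.67.

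Slc6a13 encodes GAT2, a sodium-coupled transporter of GABA and taurine found in meninges, liver and kidney. Its probe read 845.3, 1839 and 1753 units in SHR and 349.7, 550.3 and 485.0 in WKY. All SHR arrays exceeded all WKY arrays, with SHR 1 well under the other SHR arrays. The log2 means, 10.45 ± 0.63 for SHR and 8.83 ± 0.34 for WKY (SD, n = 3), stood 1.62 ± 0.34 (SE) apart, or 1.98 without SHR 1.

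Slc13a4 encodes a sodium-coupled sulfate transporter, and its 3 probes differed in direction. The brightest read 1720, 1486 and 2035 units in the SHR arrays. The WKY arrays read 332.2, 610.8 and 623.8 units, so the strains were apart by 1.79 ± 0.28 (SE, log2) or 3.45-fold. The second read 327.3, 389.3 and 405.2 in SHR and 399.0, 343.2 and 533.0 in WKY. It gave -0.17 ± 0.20 with overlapping strains. The third read 50.1, 56.9 and 77.7 in SHR and 74.4, 73.5 and 138.9 in WKY. It gave -0.59 ± 0.30, or -0.29 without WKY 3, and was brighter than only 9.69% of all probes. The annotation ties each of these probes to a sequence record of its own, and which parts of the transcript they read is not given in the sources used here. With the 3 probes averaged, Slc13a4 differed by 0.34, and the median over the 8 genes, each taken as the mean of its probes, was 1.10.

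Start-site sequence could be set beside these values for 5 of the 8 genes, from the RefSeq promoter table of build GRCr8. Slc6a13, Dcn and Thy1 have no entry in it. The 250 bases upstream of the annotated start are shown for Aldh1a2 and for Slc13a4, as these genes carry 2 of the 3 separated probes, at chr8:80758391-80758640 (plus strand) and chr4:64955987-64956236 (minus strand). Capitals mark matches on either strand to 5 motifs. These were the TATA box, searched as TATANA, the CCAAT box by those letters, and the GC box, searched as GGGCGG. The AP-1 site was searched as TGANTCA, and the octamer of POU factors as ATGCAAAT.
Aldh1a2: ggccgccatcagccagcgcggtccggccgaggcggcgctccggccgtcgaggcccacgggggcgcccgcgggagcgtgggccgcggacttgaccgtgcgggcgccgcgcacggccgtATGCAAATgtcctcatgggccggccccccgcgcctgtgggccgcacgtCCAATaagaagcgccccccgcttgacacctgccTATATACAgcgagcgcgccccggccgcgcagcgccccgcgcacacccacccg
Slc13a4: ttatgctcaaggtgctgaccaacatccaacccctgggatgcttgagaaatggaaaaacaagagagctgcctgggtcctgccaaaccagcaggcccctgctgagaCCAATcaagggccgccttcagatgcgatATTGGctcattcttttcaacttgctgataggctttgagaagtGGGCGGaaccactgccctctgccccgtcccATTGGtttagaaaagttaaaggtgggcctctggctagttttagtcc

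The Aldh1a2 window is rich in G and C (77.2%, against a median of 51.2% over 33469 windows) and holds 41 CG dinucleotides, against a median of 5. It has an octamer, which 1.56% of all windows hold on either strand, 1 CCAAT, which 34.0% hold, and overlapping TATANA matches between 52 and 45 bases before the start, a motif that 24.2% hold. The octamer overlaps a match to the E-box CANNTG, which 65.5% of windows hold and which was searched but not put in capitals. The Slc13a4 window is 52.0% G and C and has 3 CCAAT matches and 1 GC box, which 30.5% of windows hold, with no TATANA match. Neither window holds TGANTCA, found in 6.34% of all windows. These matches describe letters in the reference genome and do not show that a factor binds there.

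The proteoglycan genes were also brighter in SHR, by 0.96 to 1.46 (log2). The brightest probes of Aldh1a2, Slc6a13 and Slc13a4 differed by more, 1.49 to 1.79. The SE was larger for the proteoglycans, 0.44 to 0.58 against 0.14 to 0.34. Lum encodes lumican, which binds collagen fibrils. Its probe read 133.6, 339.8 and 365.8 units in SHR and 144.4, 126.0 and 43.9 in WKY. SHR 1 fell among the WKY arrays, so the strains overlapped, and WKY 3 was the lowest of the 6. The log2 means, 7.995 ± 0.81 for SHR and 6.54 ± 0.94 for WKY (SD, n = 3), stood 1.46 ± 0.58 (SE) apart, which was 1.93 without SHR 1 and 0.92 without WKY 3.

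Dcn encodes decorin, a proteoglycan that binds collagen and growth factors such as TGF-beta. Its probe read 585.0, 2292 and 1215 units in SHR and 353.8, 631.6 and 549.1 in WKY. Here too SHR 1 lay within the WKY range, and SHR 2 was brighter than SHR 1 by 3.92 times, the widest gap within a strain at any of the 11 probes. The difference was 1.24 ± 0.50 (SE, log2), 1.75 without SHR 1 and 0.76 without SHR 2.

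Ogn encodes osteoglycin, also called mimecan, of the same protein family. Its probe read 4157, 4223 and 6070 units in SHR and 4670, 2222 and 1398 in WKY. The overlap came from WKY 1, which exceeded SHR 1 and SHR 2, and WKY 1 was brighter than WKY 3 by 3.34 times. The difference was 0.96 ± 0.44 (SE, log2), 1.43 without WKY 1 and 0.56 without WKY 3. Each of these 3 differences thus moved with more than 1 array, and those of Lum and Ogn were smallest without WKY 3.

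**Figure D2:**
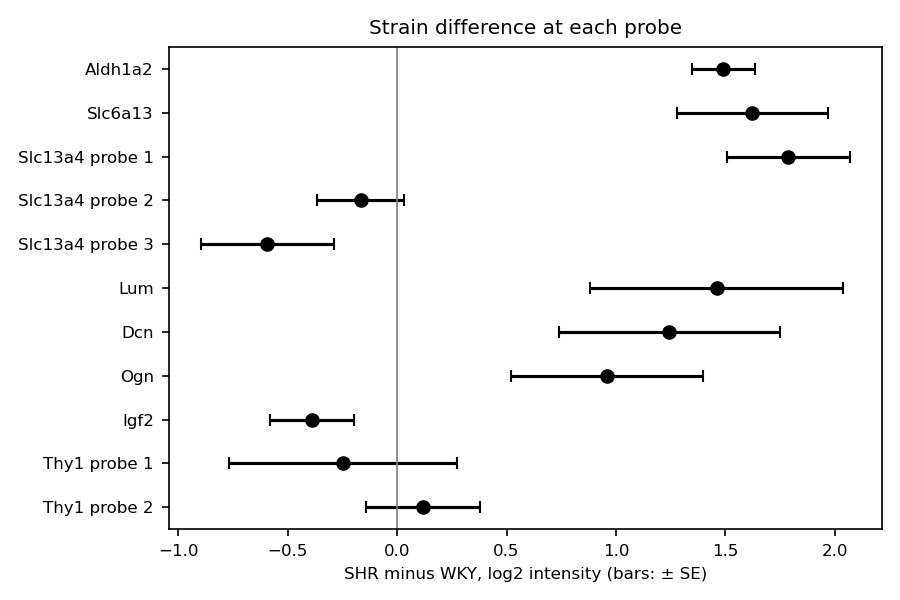
The strain difference in log2 intensity (x axis, SHR minus WKY) is drawn for each of the 11 probes (y axis) with its limma SE as a bar. Differences run from -0.59 to 1.79, the SE is smallest beside a large difference at Aldh1a2 (1.49 ± 0.14), and the 3 probes of Slc13a4 lie on both sides of 0.

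The 250 bases upstream of Lum (chr7:34245456-34245705, plus strand) and of Ogn (chr17:15258996-15259245, minus strand) are shown because these are the 2 proteoglycan genes of the group with an entry, marked as above.
Lum: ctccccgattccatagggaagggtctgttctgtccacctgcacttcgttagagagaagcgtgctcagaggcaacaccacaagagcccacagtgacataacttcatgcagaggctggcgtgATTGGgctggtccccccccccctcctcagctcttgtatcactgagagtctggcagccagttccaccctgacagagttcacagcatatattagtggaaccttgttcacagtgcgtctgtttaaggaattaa
Ogn: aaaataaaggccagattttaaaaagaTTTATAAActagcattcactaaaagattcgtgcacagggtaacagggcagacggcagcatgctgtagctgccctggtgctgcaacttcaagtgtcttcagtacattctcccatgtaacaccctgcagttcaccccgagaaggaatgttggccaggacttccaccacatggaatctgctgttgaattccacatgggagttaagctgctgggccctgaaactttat

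The Lum window has 52.8% G and C, a single CCAAT, on the opposite strand, and 1 match to the E-box. The Ogn window has 46.0% G and C, overlapping TATANA matches on both strands, between 224 and 217 bases before the start, and 3 E-box matches. Outside the E-box, these 2 windows hold no motif in common.

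The 2 genes that were dimmer in SHR are the growth factor and the surface marker. Igf2 encodes insulin-like growth factor 2, which the meninges and choroid plexus secrete. Its single-symbol probe read 55.2, 53.9 and 81.9 units in SHR and 84.0, 81.5 and 79.8 in WKY. SHR was thus dimmer, at -0.39 ± 0.19 (SE, log2), or -0.58 without SHR 3. SHR 3 lay within the WKY range, and the probe was brighter than only 8.47% of all probes, where a few intensity units change the log2 value. A further probe that the annotation gives to Igf2 together with another gene was left out by the selection.

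Thy1 encodes a GPI-anchored surface protein of fibroblasts and neurons. Its brighter probe read 1038, 504.0 and 1276 units in SHR and 2078, 751.6 and 713.9 in WKY, which gave -0.25 ± 0.52. Its other probe read 108.3, 114.3 and 104.8 in SHR and 149.3, 75.6 and 89.9 in WKY, which gave 0.12 ± 0.26. At both probes WKY 1 was the brightest array, and the direction of the difference turned without single arrays (0.25 at the brighter probe without WKY 1, and -0.087 at the other without WKY 2). No strain difference in Thy1 was therefore visible above the spread between arrays.

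Within the strains, which the choice of genes did not use, the arrays kept a partial order. SHR 1 was the lowest SHR array at 7 of the 11 probes, while it was the lowest at 32.3% of the 31327 probes with complete values. SHR 3 was the highest at 8 of the 11, against 33.8% of all. The WKY arrays showed less order, with WKY 1, 2 and 3 the lowest at 3, 4 and 4 probes. Probes of 1 gene share its transcripts and all probes share the 6 pools, so these counts describe the arrays.

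After subtracting each gene's average over all 6 arrays, Aldh1a2, Slc6a13 and Slc13a4 together averaged 0.53, 0.86 and 1.06 in SHR and -1.17, -0.66 and -0.62 in WKY (log2, brightest probes). Lum, Dcn and Ogn averaged -0.10, 1.01 and 0.92 in SHR and -0.25, -0.39 and -1.19 in WKY. The enzyme and transporter genes were thus far apart between strains on every array. The proteoglycans separated by a small margin, with SHR 1 next to the WKY arrays.

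The genes whose array profiles were most like those of Aldh1a2 and Lum were found by the mean absolute difference of centred log2 values over the 6 arrays, among 11708 other genes. Nearest to Aldh1a2 were the collagen gene Col26a1 (0.18), Mycbpap (0.18), Tnnt2, a troponin of heart muscle (0.22), Brs3, a bombesin receptor (0.23), and then Slc13a4 (0.23). The rank of Slc6a13 was 58, that of Ogn 496 and that of Lum 3414. Nearest to Lum were Trmt9b (0.37), Rnf39 (0.37), the organic anion transporter Slco1a4 (0.38), the ferritin receptor Scara5 (0.39) and the scavenger receptor Colec12 (0.43). Slc6a13 followed at rank 24, Ogn at 51 and Dcn at 174. Neither profile had Dcn or Ogn among its nearest 5. The profiles hold the strain difference on which Aldh1a2, Slc6a13 and Slc13a4 were chosen, so nothing is read from the ranks of these genes. Brs3, Trmt9b, Tnnt2 and Rnf39 were brighter than only 13.4%, 18.1%, 20.5% and 22.8% of all probes.

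Coding neighbours up to 2 places away were read from the gene order of GRCr8, and Ecm2 and H19 came from a list of neighbours fixed from general knowledge. Not all measured neighbours are named, and those of Thy1 are left out. Dcn and Lum stand side by side on chromosome 7. Btg1, the coding gene before Dcn, differed by -0.31 ± 0.21 (SE) and Epyc, 2 coding genes after Lum, by -0.60 ± 0.29, both against the direction of Dcn and Lum. The Epyc probe was brighter than only 10.5% of all probes. Beside Aldh1a2 on chromosome 8, Aqp9 gave -0.14 ± 0.11 and Polr2m 0.03 ± 0.16. Myzap, 2 coding genes after Aldh1a2, gave -0.27 ± 0.12, and at Aqp9 and Myzap all SHR arrays were dimmer. Beside Slc13a4 on chromosome 4, Stmp1 gave -0.01 ± 0.18, and Mtpn, 2 coding genes after Slc13a4, gave 0.19 ± 0.13 with all SHR arrays brighter. Usp18, the coding gene before Slc6a13, gave -0.38 ± 0.79, and Iqsec3, 2 coding genes after it, gave 0.03 ± 0.14. Ecm2, another proteoglycan-related gene near Ogn, gave 0.40 ± 0.31, and the insulin gene Ins2 and the imprinted RNA gene H19, both near Igf2, gave -0.06 ± 0.13 and -0.29 ± 0.19. Dcn and Lum, neighbours of each other, differed by 1.24 ± 0.50 and 1.46 ± 0.58 in the same direction. None of the other measured neighbours named here differed by as much as the brightest probes of Aldh1a2, Slc6a13, Slc13a4, Lum, Dcn or Ogn. The nearest coding genes of Ogn, Cenpp and Omd, had no complete single-symbol probe.

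Other genes of these cells, listed from general knowledge but with earlier results of these data known, leaned the same way by less. Of 30 transporters, junction and secreted proteins listed for the leptomeninges, 24 had a complete probe. Of these 24, 20 were higher in SHR, with a median of 0.24. Serping1 was not counted, as its probe lacked a value in SHR 2. It gave -0.63 ± 0.31 (SE), was brighter than 98.5% of all probes and was picked with its values known. Of 9 meningeal transcription factors 7 were higher (median 0.34), and of 24 fibroblast collagens and matrix genes 17 were higher (median 0.18). These medians moved with single arrays, to 0.39 for the first list without SHR 1, to 0.14 for the transcription factors without WKY 1 and to 0.11 for the matrix genes without WKY 3. Over the 57 genes of these 3 lists 44 were higher, or 77.2%, against 49.8% of all 11709 genes, and the median was 0.20. In limma 0 of the 57 passed an adjusted p of 0.05, and 15 higher and 1 lower had an unadjusted p under 0.05, beside 3.38% and 3.31% of all genes. The strains did not overlap at 12 genes higher and 2 lower in SHR, beside 6.62% and 7.3% of all genes. With single arrays left out, 42 to 44 of the 57 were higher, but the number higher at an unadjusted p under 0.05 ran from 8 (without SHR 3) to 16. Genes of a list share cells and pools and are not independent.

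Mgp, which encodes matrix Gla protein, an inhibitor of calcification, had the smallest unadjusted p of the leptomeningeal list and read 12443, 11179 and 12094 units in SHR and 7360.5, 5730.5 and 6683 in WKY. All SHR arrays were brighter, by 0.86 ± 0.14 (SE, log2), and its second probe gave 0.67 ± 0.25. The largest difference of the list was that of the connexin gene Gjb2, at 1.503 ± 0.56 with overlapping strains, which was picked with its values known. Its second probe gave 0.38 ± 0.58 but was brighter than only 5.05% of all probes. Gjb6, a connexin gene also active in astrocytes, gave 1.28 ± 0.38, and Islr, which encodes a secreted leucine-rich protein, gave 0.82 ± 0.28. Bmp4, a bone morphogenetic protein of the meninges, went the other way at -0.80 ± 0.20, with all SHR arrays dimmer. None of these passed over all probes.

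Among the transcription factors, Zic4, Zic1, Zic2 and Tbx18 had the smallest unadjusted p. Zic4 read 1881.1, 1881.3 and 1708 units in SHR and 1139, 1345 and 1172 in WKY. It was brighter in SHR by 0.58 ± 0.13 (SE, log2) with 0.47 ± 0.18 at its second probe. Zic1 gave 0.94 ± 0.24 and Zic2 0.34 ± 0.13. Tbx18, a T-box factor of mural and meningeal cells, gave 1.29 ± 0.40 and 0.86 ± 0.23 at its probes, the second brighter than only 14.2% of all probes. The strains did not overlap at the brightest probes of these 4 genes, and none passed the adjusted threshold. Foxc1, a forkhead factor needed for meninges to form, gave 0.17 ± 0.16 at its brightest probe. Its other 2 probes gave 1.17 ± 0.57 and 0.73 ± 0.23 but were brighter than only 29.6% and 9.13% of all probes. Twist1 gave -0.34 ± 0.28, and both genes were picked with their values known.

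Of the matrix genes, the collagen VI chains Col6a2 (1.06 ± 0.18) and Col6a1 (0.74 ± 0.19, and 1.29 ± 0.40 at its second probe), Pcolce (0.91 ± 0.20, and 0.85 ± 0.28 at its second probe), which enhances procollagen processing, and Fbln1 (0.62 ± 0.19), a fibulin, were the leading members by unadjusted p. At their brightest probes all SHR arrays exceeded all WKY arrays, and 0 passed the adjusted threshold. At the second probe of Pcolce the strains overlapped, with SHR 1 at 2177 units and WKY 2 at 2282. The chains of collagen I, the main product of most fibroblasts, differed by -0.02 ± 0.17 (Col1a1, and 0.04 ± 0.24 at its second probe) and 0.20 ± 0.16 (Col1a2), which were also picked with their values known.

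Other members of the proteoglycan family gave 0.90 ± 0.52 (Fmod, fibromodulin), 0.37 ± 0.23 (Bgn, biglycan), 0.40 ± 0.31 (Ecm2), 0.21 ± 0.27 (Prelp), -0.09 ± 0.16 (Chad) and -0.60 ± 0.29 (Epyc). Their median was 0.29 (0.072 without SHR 3 and 0.17 without WKY 3), and none had strains that did not overlap. Fmod, like Ogn, was brighter in WKY 1 (4490.1 units) than in the other WKY arrays (1446 and 2399). SHR 2, at 2569, was far under SHR 1 and SHR 3 (6393 and 6212), which is not the order that Dcn and Lum showed.

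**Figure D3:**
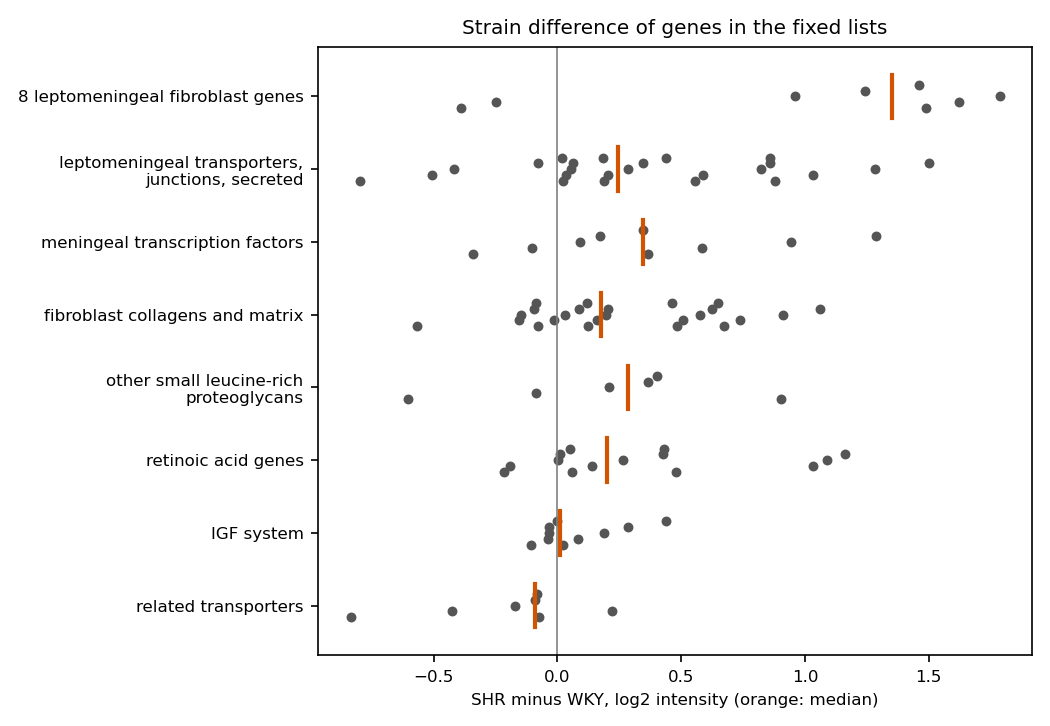
Each point is the SHR minus WKY difference in log2 intensity (x axis) of 1 gene at its brightest complete probe, by list (y axis), with the list's median in orange. The 8 leptomeningeal fibroblast genes have a median of 1.35, and the medians of the other lists lie between -0.09 and 0.34.

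Genes of retinoic acid handling bear on Aldh1a2. Of 14 measured, 12 were higher in SHR, beside 49.8% of all genes, with a median of 0.20. In limma 0 passed the adjusted threshold, and 3 were higher at an unadjusted p under 0.05, beside 3.38% of all genes. Without single arrays the number higher lay between 8 (without SHR 3) and 11. Dhrs3, a retinaldehyde reductase, differed by 0.48 ± 0.12 and Rdh10, which makes retinaldehyde from retinol, by 0.43 ± 0.15, both with no overlap between strains. Cyp26b1, which breaks retinoic acid down, gave 1.09 ± 0.39 and 1.03 ± 0.40 at its 2 probes, and Stra6, the retinol uptake receptor, gave 1.16 ± 0.49. The other retinaldehyde dehydrogenases gave 0.14 ± 0.69 (Aldh1a1) and 0.00 ± 0.15 (Aldh1a3), both picked with their values known.

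The IGF genes were centred on 0, with 5 of 10 higher, beside 49.8% of all genes, and a median of 0.01 (-0.03 to 0.13 without single arrays). Their leading members were Igfbp4 (0.44 ± 0.24), Igfbp5 (0.19 ± 0.26, and 0.92 ± 0.57 at its second probe), Igfbp6 (0.28 ± 0.44) and Igfbp3 (-0.11 ± 0.17, and 0.07 ± 0.18 at its second probe). Transporters related to Slc6a13 and Slc13a4 were mostly lower in SHR, 6 of 7, with a median of -0.09 (-0.29 without SHR 2). The taurine transporter Slc6a6 gave -0.84 ± 0.25 and the creatine transporter Slc6a8 -0.43 ± 0.15, each with all SHR arrays dimmer. The second probe of Slc6a6 gave -0.35 ± 0.20 with overlapping strains. The astrocyte GABA transporter Slc6a11 gave -0.17 ± 0.15 and the sulfate transporter Slc13a1 0.22 ± 0.20. In limma 0 of the genes of both lists passed the adjusted threshold. An unadjusted p under 0.05 was met by 2 of the 7 transporters, both lower, beside 3.31% of all genes lower and 3.38% higher. No gene of either family therefore shared the size of difference seen at Slc6a13 and the brightest Slc13a4 probe.

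Markers of other cell types moved with the strains too. Of 8 measured choroid plexus markers 7 were higher in SHR, beside 49.8% of all genes, with a median of 0.61 (0.40 without SHR 3 and 0.40 without WKY 3). Their summed intensity was 12782 to 17464 units in SHR and 6246 to 8288 in WKY. Ttr, which encodes transthyretin, gave 2.66 ± 0.60 (SE, log2). The transcription factor gene Otx2 gave 1.47 ± 0.47 but was brighter than only 16.5% of all probes. Kl was the marker lower in SHR, at -0.29 ± 0.27. Aqp1 and Clic6 had no complete probe and were not counted. Their incomplete probes gave 0.47 ± 0.26 and -0.74 ± 0.24, brighter than only 9.21% and 9.30% of all probes. Kl, Aqp1 and Clic6 were picked with their values known. All 8 counted markers had values above 0 on every array, and 4 were dimmer than the median probe. Slc13a4 and Slc6a13 are transporters that the choroid plexus or its stroma may also express, and the part of such cells in their differences was not tested.

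Oligodendrocyte lineage markers were lower in SHR at 10 of 11 genes, with a median of -0.76 (-0.50 without SHR 3). Their summed intensity was 64079 to 114825 units in SHR and 109098 to 125634 in WKY, where SHR 2, the highest SHR array, lay within the WKY range. Pericyte and smooth muscle markers had 6 of 9 lower (median -0.29, and -0.038 without WKY 1) and summed intensities of 20649 to 23702 in SHR and 19308 to 27886 in WKY. Medians were 0.18 for 7 endothelial markers, -0.04 for 9 astrocyte markers, -0.07 for 10 microglial markers, 0.03 for 9 neuronal markers, a cell type that also makes Thy1, and -0.12 for 5 Schwann cell markers. Without single arrays the astrocyte, neuronal and Schwann cell medians took both signs, and the endothelial median ran from 0.05 to 0.16. The astrocyte and microglial markers were bright, with median signals of 14.01 and 15.06 (log2) against 9.01 over all probes. Whether probes this bright show a difference in full was not tested. In limma 0 of the genes in these 8 lists passed the adjusted threshold. The part of these cell types in the differences of the leptomeningeal genes was not tested.

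**Figure D4:**
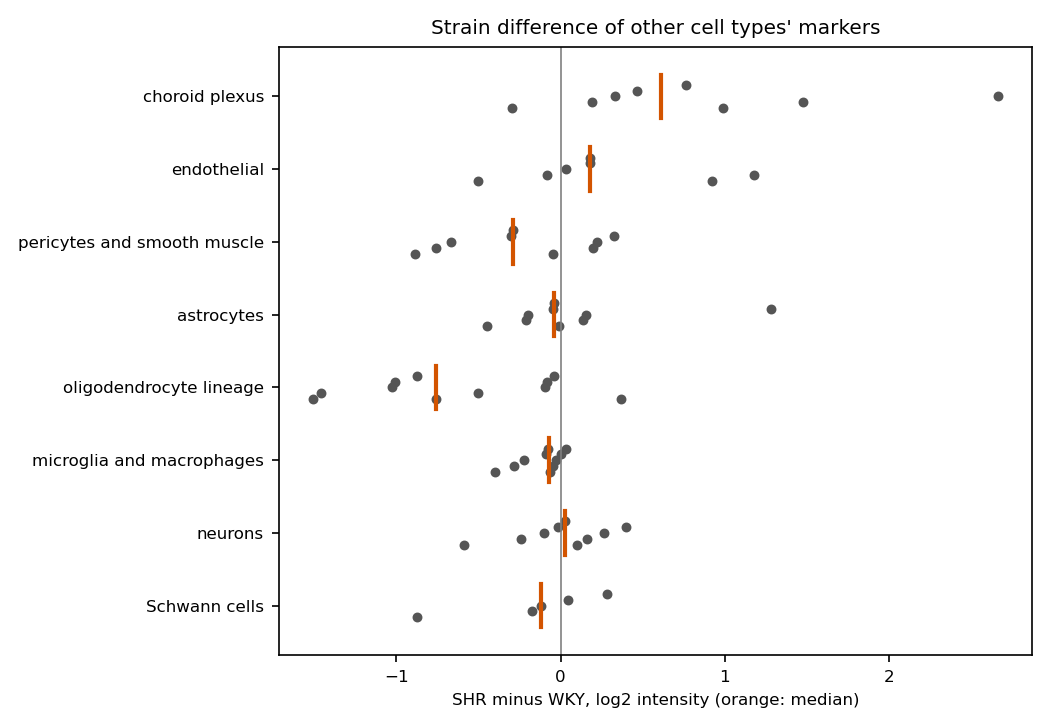
Each point is the SHR minus WKY difference in log2 intensity (x axis) of 1 marker gene at its brightest complete probe, by cell type (y axis), with the median in orange. Choroid plexus markers have a median of 0.61 and oligodendrocyte lineage markers one of -0.76, and the others lie between -0.29 and 0.18.

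By array, the meningeal transcription factors averaged 0.12, 0.23 and 0.20 in SHR and -0.27, -0.14 and -0.14 in WKY (centred log2). The collagens and matrix genes averaged 0.18, 0.05 and 0.17 in SHR and -0.03, -0.13 and -0.25 in WKY. Choroid plexus markers averaged 0.27, 0.35 and 0.62 in SHR and -0.45, -0.49 and -0.29 in WKY. On these averages every SHR array lay above every WKY array in all 3 lists, while SHR 1, the lowest SHR array for Lum, Dcn and Slc6a13, was the highest SHR array for the matrix genes.

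**Figure D5:**
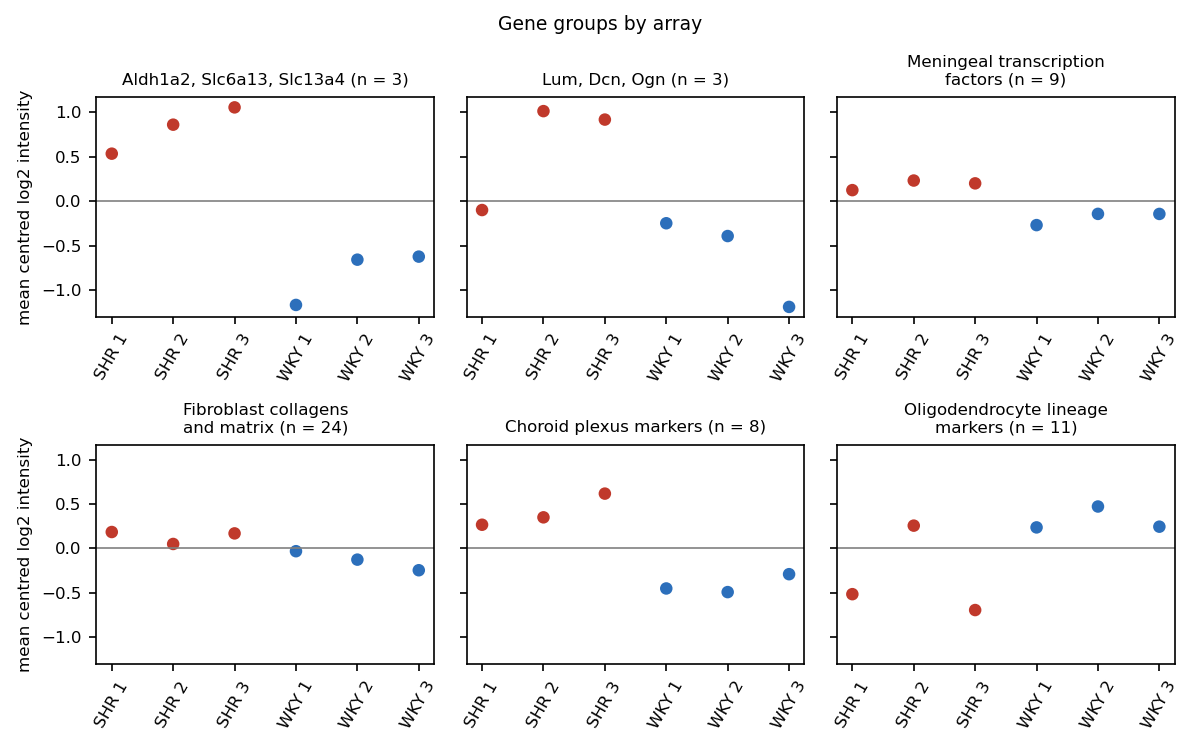
Each point is 1 array (x axis, SHR red, WKY blue), and the y axis is the mean log2 intensity of a gene group after each gene's average over all 6 arrays was subtracted. Aldh1a2, Slc6a13 and Slc13a4 lie at 0.53 or more in SHR and at -0.62 or less in WKY, and oligodendrocyte markers lie at 0.26 in SHR 2, within the WKY values of 0.24 to 0.47.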

How the data were processed

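The authors, per the labels, took spot intensity after background subtraction from the CodeLink software, dropped measurements under negative controls plus 2 SD and applied quantile normalization. No version or genome build is given in the sources used here. The deposited series table of normalized intensity (median 520 units on each array) was the main source. The deposited per-sample tables, with medians of 439 to 572 units and the same rank order, are not normalized between arrays and were an alternative. The number of arrays limits the precision. Values not above 0 (615 per array) were treated as missing, and log2 was used without an offset. Probes with 3 values in 1 strain and at least 2 in the other were tested, 33249 in all, with limma 3.58.1 in R 4.3.3 (two-sided, Benjamini-Hochberg adjustment over all probes), checked on simulated data. SE is limma's moderated standard error.

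Symbols came from the platform annotation (16753 probes with 1 symbol, 165 with several, 16931 with none), and 174 of 204 listed genes had a probe. A gene was taken at its brightest probe with 6 values. All probes of the 8 genes are named. From the other lists the text names up to 4 genes by smallest p, all proteoglycans and listed neighbours, the 5 nearest profiles of Lum and Aldh1a2, and a few genes said to be picked with their values known. Neighbours by gene order and the second probes of named genes were added after seeing the data. The members and lists were chosen with earlier results of these data known. Alternatives were other normalizations, offsets, filters and priors, array weights, a replicate block and leaving out each array.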

Additional observations from a re-analysis of the deposited data

How the results depend on the processing

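The median over the 8 genes stayed between 1.10 and 1.65 and was above 0 in all settings. It was 1.65 without SHR 1, and without single arrays it ran from 1.12 to 1.65. The value of 1.10 came from averaging all probes of a gene, a choice made after seeing the data. The median of the 57 other leptomeningeal and fibroblast genes was 0.35 with intensities not normalized between arrays, and without single arrays 0.17 to 0.26. The number of the 11 probes with separated strains ran from 3 to 6 without single arrays, where fewer arrays make separation easier to meet.

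The count of probes past the adjusted threshold was 6 with an offset of 50 before log2, 5 with probes above 0 on all 6 arrays, 18 without the dimmest 25% of probes, 28 with an intensity trend and robust prior and 5 with array weights. It was 0 with a replicate block, where 2798 probes had an unadjusted p under 0.05, and 0 without each single array. The block left the median over the 8 genes at 1.35. Deviations of same-numbered arrays correlated at 0.0011, 0.22 and -0.13, and those of other pairs at -0.25 to 0.27. No pairing by number was seen, though 3 arrays per strain are too few to exclude it. Of the 11 probes, Aldh1a2 alone was called, in the fit without the dimmest 25% of probes and in the fit with an intensity trend and robust prior. In the other settings, leaving out an array included, 0 were called. Aldh1a2 was chosen on this same contrast, so nothing is read from the calls.

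Aldh1a2, Slc6a13, the brightest Slc13a4 probe, Lum, Dcn and Ogn were higher in SHR in every setting run. Without single arrays, probe 2 of Slc13a4 ran from -0.31 to 0.0089 (positive without WKY 3), the brighter probe of Thy1 from -0.52 to 0.25 (positive without SHR 2, 0.15, and without WKY 1) and its other probe from -0.087 to 0.40 (negative without WKY 2). The other Thy1 probe was also at -0.063 with median-centred per-sample intensities. Probe 3 of Slc13a4 ran from -0.77 to -0.29, and Ogn from 0.56 to 1.43. The causes were not tested.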
